A study of Mus musculus with 2 samples.

Results

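The axon guidance ligands and receptors described here are the semaphorins of classes 3 to 7, the ephrins, the Slits and the netrins, with their receptors: plexins, neuropilins, Eph receptors, Robo proteins, Dcc and the Unc5 proteins. They were chosen by gene name among protein-coding genes on chromosomes 1 to 19 in GENCODE, and 66 of 20807 such genes were members. They were read in 2 DNase-seq libraries, which form 1 group, of tissue labelled as a layer of hippocampus from mice of strain B6CASTF1/J at 25 days of age, with sex given as male. These animals are first-generation hybrids of the B6 and CAST strains, the labels do not say which layer was taken, and no treatment is given. DNase I cuts DNA where chromatin is open, so a peak marks an open region and a footprint is a short stretch inside it that was cut less than its surroundings.

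Guidance cues tell a growing axon where to go. Semaphorins act through plexins, the secreted class 3 ones with neuropilins as co-receptors, ephrins through Eph receptors, Slits through Robo proteins, and netrin 1 through Dcc for attraction and Unc5 proteins for repulsion. In the hippocampus several of them place the mossy fibres and the other layered inputs during development, and Eph receptors, ephrins and semaphorins also act on dendritic spines and synapses.

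The labels number the libraries as biological replicates 1 and 2 but give them the same donor entry, and nothing in the labels says that they came from separate animals, so the spread between them may in part be technical. Replicate 1 had 93545 peaks and 223251 footprints, and replicate 2 had 79144 peaks and 170016 footprints. The number of cuts behind them is unknown. A promoter peak lay at 4 of 4 Y-linked marker genes in replicate 1 and at 0 of 4 in replicate 2, while the promoter of Xist held 0 peaks in replicate 1 and 3 in replicate 2. At these promoters replicate 2 thus did not match its label as male, and the libraries differed although their donor entry is shared. Over the whole Y chromosome, however, replicate 1 had 40 peaks and replicate 2 had 39, and 2 distal peaks lay near the Y-linked gene Uty in replicate 2 and 0 in replicate 1. Values of single genes are given below for both libraries. Among markers of the tissue, 5 of 5 general neuron genes and 4 of 5 of hippocampal excitatory neurons had a promoter peak in both libraries, all but Neurod2. The same held for 2 of 5 inhibitory neuron, 3 of 6 astrocyte, 1 of 7 oligodendrocyte, 1 of 6 microglia, 2 of 7 endothelial and 1 of 5 mural cell genes. It also held for 3 of 4 genes of ependymal cells and choroid plexus and for 2 of 4 of meningeal fibroblasts. Of 4 genes of other tissues, Alb, Apoa1 and Myh6 had none. Ckm had one, with peak values of 2.27 in replicate 1 and 2.65 in replicate 2. Over all autosomal protein-coding genes, 63.9% had a promoter peak in both libraries. In bulk tissue, fewer cells with an open region and a less open region in every cell cannot be told apart.

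The sequences below are those of 5 of the strongest distal peaks found in both libraries near members and of the strongest member promoter, and they show what the deposited footprints cover. They are GRCm38.p6 reference sequence, not that of the CAST allele, written 5′ to 3′ on the strand of the gene, and capitals mark bases that lie in a footprint in both libraries. The peak of Sema3b is chr9:107612681-107612960 and that of Epha4 chr1:77516321-77516560. The peak of Ephb2 is chr4:136678561-136678760, that of Sema7a chr9:57935781-57935960 and that of Slit1 chr19:41656061-41656280. Each of these stretches spans the peaks of both libraries. For Efnb2 the stretch is chr8:8661243-8661460, the part of the promoter peak that is common to both libraries and outside annotated exons.
Sema3b: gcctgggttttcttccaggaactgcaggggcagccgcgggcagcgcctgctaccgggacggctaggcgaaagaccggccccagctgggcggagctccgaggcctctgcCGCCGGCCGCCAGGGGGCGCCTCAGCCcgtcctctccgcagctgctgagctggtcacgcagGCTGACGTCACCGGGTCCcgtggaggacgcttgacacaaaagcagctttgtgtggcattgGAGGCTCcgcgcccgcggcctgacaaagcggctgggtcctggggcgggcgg
Epha4: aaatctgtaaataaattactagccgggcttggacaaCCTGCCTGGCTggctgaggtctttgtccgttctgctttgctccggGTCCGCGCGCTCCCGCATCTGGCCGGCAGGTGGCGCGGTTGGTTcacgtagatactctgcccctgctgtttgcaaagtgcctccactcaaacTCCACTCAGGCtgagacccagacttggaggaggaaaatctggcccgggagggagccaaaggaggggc
Ephb2: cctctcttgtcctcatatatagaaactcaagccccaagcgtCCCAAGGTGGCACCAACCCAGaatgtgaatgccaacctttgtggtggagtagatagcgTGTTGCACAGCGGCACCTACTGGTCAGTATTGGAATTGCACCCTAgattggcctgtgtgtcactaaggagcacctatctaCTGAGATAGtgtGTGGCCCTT
Sema7a: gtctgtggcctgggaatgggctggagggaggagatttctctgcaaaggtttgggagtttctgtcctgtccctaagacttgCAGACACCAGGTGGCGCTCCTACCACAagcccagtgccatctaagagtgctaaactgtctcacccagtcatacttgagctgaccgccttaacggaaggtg
Slit1: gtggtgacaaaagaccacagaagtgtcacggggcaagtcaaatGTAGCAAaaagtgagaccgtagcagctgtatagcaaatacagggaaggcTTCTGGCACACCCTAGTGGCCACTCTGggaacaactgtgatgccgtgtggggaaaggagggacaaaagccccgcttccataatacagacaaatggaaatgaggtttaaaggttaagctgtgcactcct
Efnb2: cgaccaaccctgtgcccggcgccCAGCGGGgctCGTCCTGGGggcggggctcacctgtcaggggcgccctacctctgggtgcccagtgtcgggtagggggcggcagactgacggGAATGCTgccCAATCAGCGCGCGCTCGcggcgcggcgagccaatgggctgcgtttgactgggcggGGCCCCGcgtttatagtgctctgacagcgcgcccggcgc
In the Sema3b peak the capitals hold the CREB letters TGACGTCA and the CTCF letters AGGGGGCGC, which overlap a longer CTCF form, CCNNNAGNNGGC, also in capitals. The Epha4 peak holds the longer form in capitals, together with the E-box letters CAGATG read on the opposite strand. No complete match to any of the 14 motifs searched lay in the capitals of Ephb2, Sema7a, Slit1 or Efnb2, where 84, 27, 34 and 47 bases were in footprints of both libraries. A match to letters is a description and not a binding site, and a missing match says only that these letters are not in the window.

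Nearly all guidance genes had an open promoter. A promoter peak, one that overlapped the 1 kb on either side of an annotated transcription start site (TSS), was present in both libraries in 59 of 66 members, against 63.9% of all genes. By library it was 62 members in replicate 1 and 60 in replicate 2. At least 1 footprint in a promoter peak was present in both libraries in 57 of 66 members, against 61.5% of all genes. The open promoters were of moderate height. The peak value is the authors' signal, a coverage-like height of unknown scaling, and each gene was given its highest promoter peak. The median over the 59 open members was 1.76 as the mean of both libraries, and 2.21 over the 13300 open genes of the whole table. By library it was 1.75 for members and 2.26 for all genes in replicate 1, and 1.62 for members and 2.15 for all genes in replicate 2. Only 12 of the 59 members were above the median of all open genes. The middle of the distribution was narrower too, with quartiles of 1.31 and 2.15 for members against 1.45 and 2.97 for all genes.

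**Figure D1:**
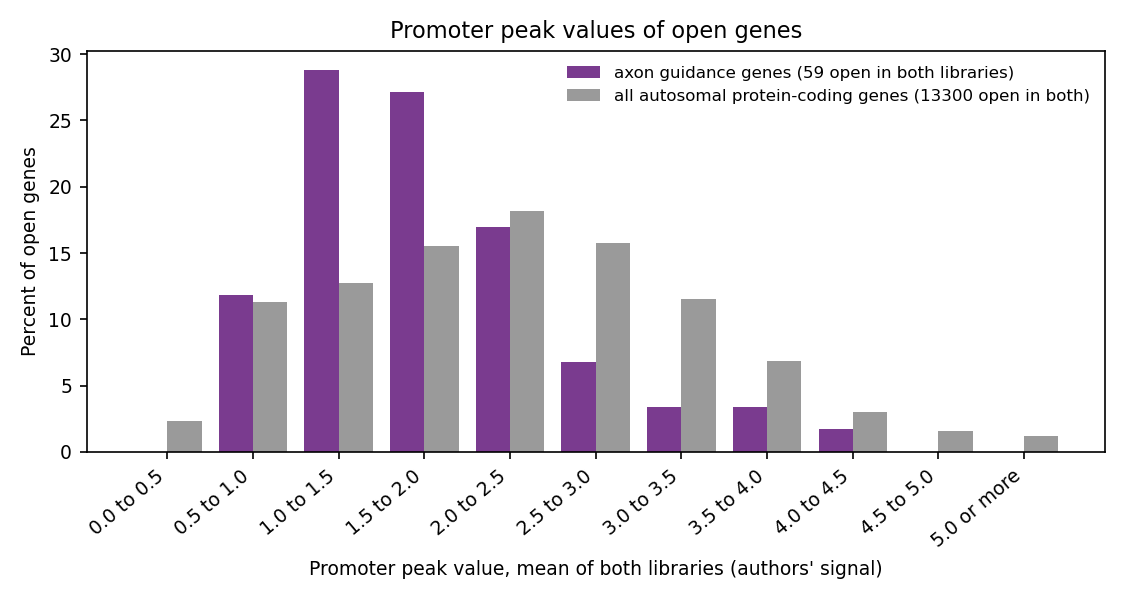
Percent of open genes (vertical axis) by promoter peak value in bins of 0.5 (horizontal axis, mean of both libraries, the authors' signal), for the 59 open axon guidance genes and for all 13300 open genes. Of the members, 28.8% lie between 1.0 and 1.5 and 27.1% between 1.5 and 2.0, against 12.8% and 15.5% of all genes, and the members thin out above 2.5.

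Base composition was measured beside these counts. A promoter was counted as rich in CpG when the 1 kb centred on the gene start had at least 50% GC and a ratio of observed to expected CpG of at least 0.6, and 44 of 66 members met this, against 45.7% of all genes. Of the CpG-rich members 42 of 44 were open in both libraries, a share of 95.5%, and of all CpG-rich genes 95.2%. Of the 22 CpG-poor members 17 were open, or 77.3%, against 37.6% of all CpG-poor genes. Among CpG-rich open genes the median value was 1.76 for members and 2.49 for all genes, and among CpG-poor ones 1.59 for members and 1.56 for all genes. By library the CpG-rich medians were 1.77 for members and 2.52 for all genes in replicate 1, and 1.65 for members and 2.42 for all genes in replicate 2. The CpG-poor ones were 1.68 for members and 1.64 for all genes in replicate 1, and 1.48 for members and 1.46 for all genes in replicate 2. Within the classes, members thus had a higher share of open promoters than all genes in the CpG-poor class, and lower values in the CpG-rich class. Members were also more often CpG-rich, 66.7% against 45.7%, and CpG-rich genes were more often open. The higher share over all members therefore does not come from the CpG-poor class alone. Several open CpG-poor members lay just under a limit, such as Ntn1, Sema4f, Nrp1 and Dcc with CpG ratios of 0.590, 0.589, 0.577 and 0.571. Epha3 missed only the GC limit, with 49.8%. Others lay far below, such as Sema3b at 0.169 and Plxna2 at 0.113. How close all CpG-poor genes lay to the limits is not given, so the 2 shares in that class may not compare like promoters. A gene may have other start sites outside the stretch that was classed.

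Taken by role, 29 of 34 ligands and 30 of 32 receptors were open in both libraries. The median promoter value, as the mean of both libraries, was 1.40 over open ligands and 1.78 over open receptors. By library it was 1.63 for ligands and 1.81 for receptors in replicate 1, and 1.39 for ligands and 1.65 for receptors in replicate 2. Single genes stood far above their family in several cases, as the plot of promoter values by gene shows.

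**Figure D2:**
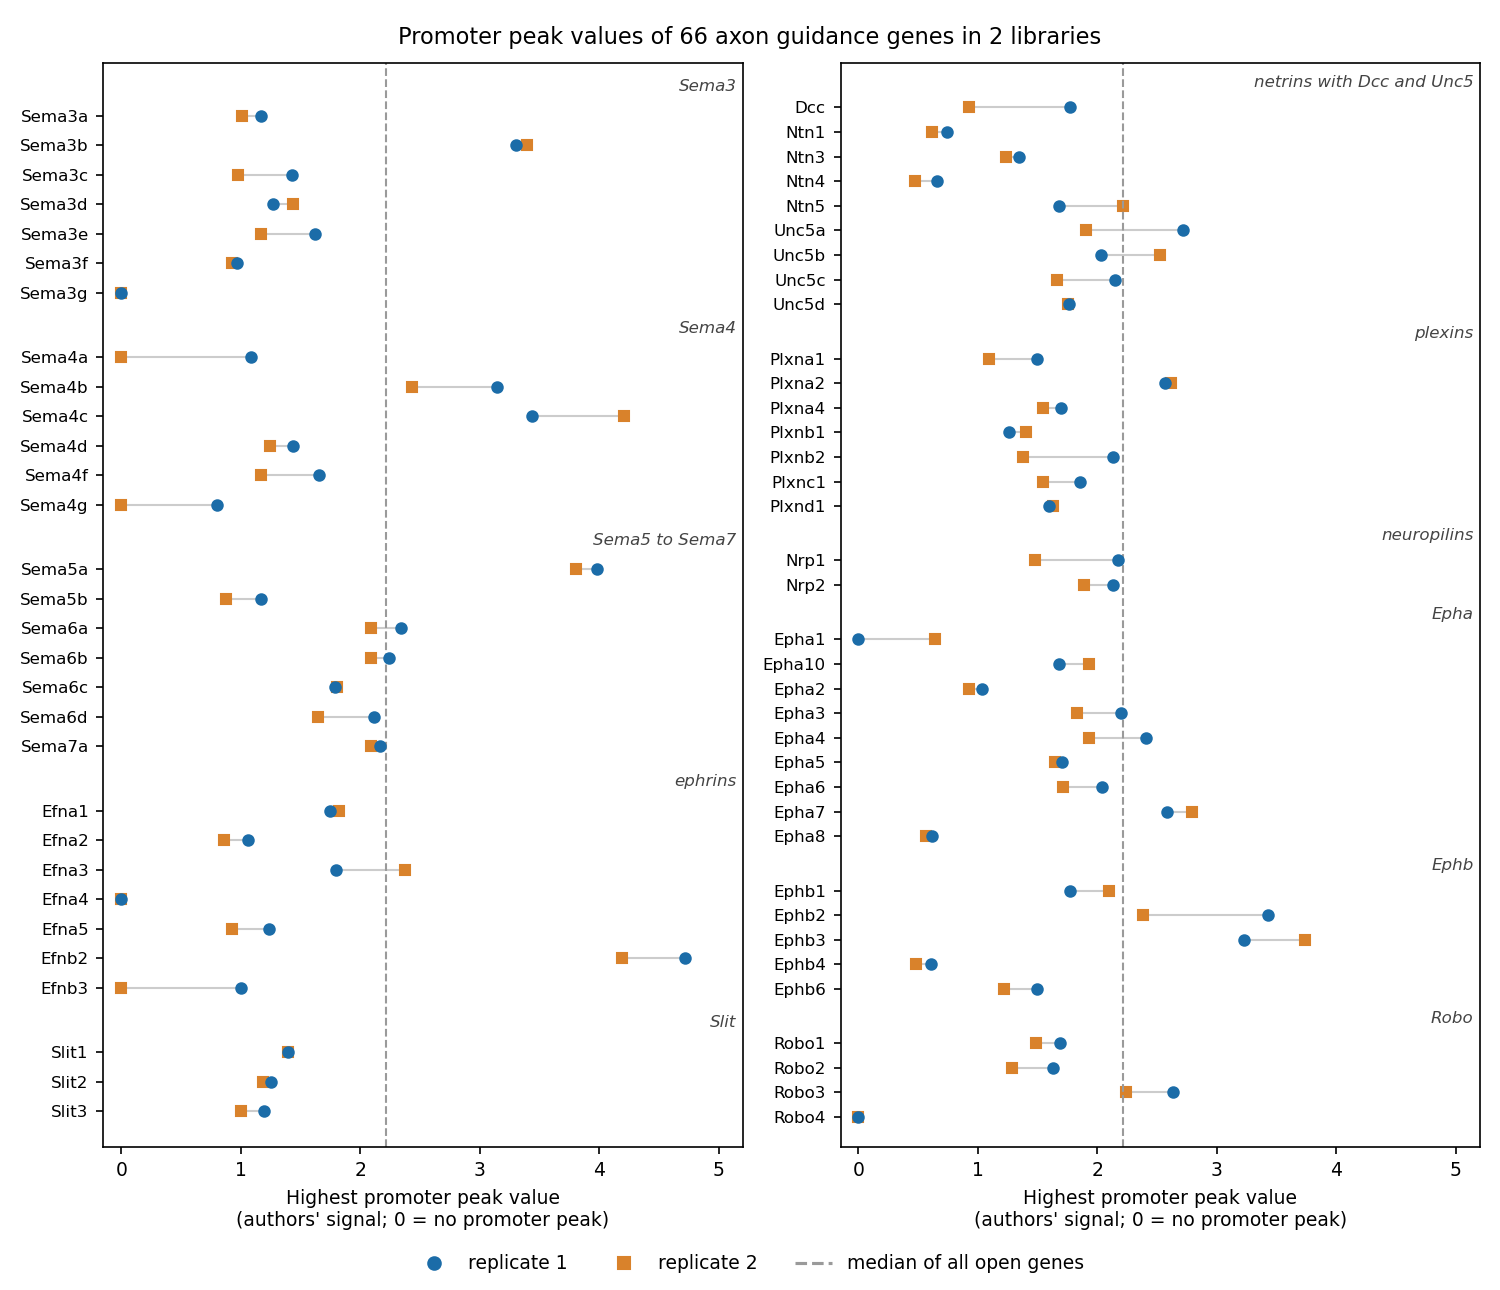
Highest promoter peak value (horizontal axis, the authors' signal, 0 where no promoter peak was listed) of each of the 66 genes in replicate 1 (circles) and replicate 2 (squares), grouped by family, with a dashed line at the median of all open genes, 2.21. Efnb2, Sema5a, Sema4c, Ephb3 and Sema3b stand above 3 in both libraries, and Robo4, Sema3g and Efna4 are at 0 in both. The Sema5a peak lies at the edge of its promoter window, and the Sema3b peak in a window inside the gene.

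Among the secreted class 3 semaphorins, 6 of 7 were open. Sema3b was the highest of the class, with 3.31 in replicate 1 and 3.40 in replicate 2. These values came from 1 of its 3 promoter windows, inside the gene. The window at the gene start held no peak in either library. The other open members of the class lay far below Sema3b: Sema3a, the ligand that collapses growth cones through neuropilin 1, had 1.17 and 1.01. The open window of Sema3a also lay inside the gene, with no peak at the gene start. Sema3f, the ligand of neuropilin 2, had 0.968 and 0.928. Sema3g, known from endothelial cells, had no promoter peak in either library.

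The class 4 semaphorins, which are membrane proteins, ranged from closed to among the highest members, with 4 of 6 open in both libraries. Sema4c reached 3.44 and 4.21 in replicates 1 and 2 and Sema4b 3.14 and 2.44. Sema4d, a ligand of plexin B1, had lower values, 1.43 and 1.24, but 3 separate promoter windows open in both libraries and, by the mean of both libraries, the second largest number of promoter footprints among members, 24 in replicate 1 and 12 in replicate 2. In replicate 2 alone several members had more. Sema4a and Sema4g had a promoter peak only in replicate 1, with values of 1.09 and 0.798.

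All 7 semaphorins of classes 5 to 7 were open. The transmembrane Sema5a had one of the highest values of all members, 3.99 in replicate 1 and 3.80 in replicate 2. That peak lay mostly outside the promoter window, which ends at 32246103. It ran from 32246061 to 32246280 in replicate 1 and from 32246081 to 32246280 in replicate 2. The related Sema5b was the lowest of the group, with 1.17 and 0.877. Sema6d had 2.12 and 1.65, with 17 promoter footprints in replicate 1 and 15 in replicate 2. Sema6a, a ligand of plexins A2 and A4 known for the placing of hippocampal mossy fibres, had 2.34 and 2.09. Sema7a, which is held to the membrane by a lipid anchor and binds plexin C1, had 2.17 and 2.09, so that Sema6a and Sema7a lay close to the median of all open genes.

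Of the ephrins, 5 of 7 were open in both libraries, and they spanned the whole range of values. Efnb2, a transmembrane ligand of EphB receptors and of EphA4, was the highest of all 66 members, with 4.72 in replicate 1 and 4.19 in replicate 2. Its promoter sequence above carries 6 footprints in replicate 1 and 4 in replicate 2. Efnb3, another transmembrane ephrin, had 3 promoter peaks of up to 1.00 in replicate 1 and none in replicate 2, where 26 promoter bases nevertheless had an FDR under 0.05. Of the lipid-anchored A ephrins, Efna3 had 1.80 and 2.38, Efna1 1.75 and 1.82, and Efna4 no promoter peak in either library.

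The 3 Slits were open in both libraries, all below the median of all genes. Slit1 had 1.39 in both libraries, Slit2 1.26 and 1.19, and Slit3 1.19 and 1.01. Slit3 had 3 separate promoter windows open, of 4 annotated, while Slit2 had 1 of 14.

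Of the netrins, Ntn1, Ntn3 and Ntn4 had promoter values below the median of members and Ntn5 above it, by the mean of both libraries. Ntn1, the founding attractant, had 0.742 and 0.612, spread over 9 promoter peaks in replicate 1 and 8 in replicate 2. Ntn4 was the lowest of its family, with 0.657 and 0.471. Ntn3 had 1.34 and 1.24 and Ntn5 1.67 and 2.22, the last with 0 promoter footprints in either library. The Ntn5 peak lay mostly outside the promoter window, which starts at 45683022, and in replicate 2 it ended at 45683040. The Unc5 receptors had higher values than Ntn1, Ntn3 and Ntn4. Unc5a had 2.72 and 1.90 and Unc5b 2.03 and 2.53. Dcc, the attractive receptor, had 1.77 in replicate 1 and 0.922 in replicate 2, the largest ratio between the libraries of any open member.

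Among the receptors of semaphorins all 7 plexins and both neuropilins were open. Plxna2, a receptor of Sema6a, was the highest plexin, with 2.57 and 2.62. Plxna1 was the lowest by the mean of both libraries, with 1.50 and 1.09, and the other plexins lay between them. Plxnc1, the receptor of Sema7a, had 1.85 and 1.54 and one of the largest numbers of promoter footprints, 17 in replicate 1 and 15 in replicate 2. Plxnb1, the receptor of Sema4d, had 1.26 and 1.40. Nrp2 had 2.13 and 1.89, and Nrp1 2.18 and 1.48.

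Of the EphA receptors, 8 of 9 were open in both libraries. Epha7 was the highest, with 2.58 and 2.79, and had 18 and 14 promoter footprints. Epha4, which binds ephrins of both classes and is known for its action on dendritic spines, had 2.41 and 1.93. Epha8 had 0.615 and 0.567, with 0 promoter footprints in either library. Epha1 had 1 promoter peak, of 0.645, in replicate 2 and none in replicate 1.

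All 5 EphB receptors were open, again over a wide range. Ephb3 had 3.23 and 3.74. Ephb2, which binds NMDA receptors at synapses, had 3.43 and 2.38. Ephb1 had 1.77 and 2.09 and more promoter footprints than any other member, 26 in replicate 1 and 18 in replicate 2. Of its 8 promoter peaks in replicate 1, 4 lay in a second promoter window, with values of up to 0.226. That window held 0 peaks in replicate 2, and footprints were not counted by window. Ephb4, known as a receptor of venous endothelium, was the lowest, with 0.608 and 0.483. Ephb6, a receptor without kinase activity, had 1.50 and 1.22.

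Of the Robo receptors 3 of 4 were open. Robo3, known from commissural axons, was the highest, with 2.64 and 2.24. Robo1 and Robo2, the main Slit receptors, had 1.69 and 1.49, and 1.63 and 1.28. Robo4, the Robo of blood vessels, had no promoter peak in either library. None of the 4 Robo genes met the limit for a CpG-rich promoter.

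The 2 libraries gave like promoter values. In all 59 open members they were within 2-fold of each other, and in 57 within 1.5-fold, the others being Dcc and Plxnb2. Values were higher in replicate 1 than in the library labelled male replicate 2 in 43 of 59 members, or 72.9%, and in 65.6% of all open genes. As raw counts per gene, open promoters of members also held more peaks than those of genes in general. The median open member had 3 promoter peaks in each library, against 2 for all open genes. The median open member had 9 promoter footprints in replicate 1 and 7 in replicate 2, against 6 and 5 for all genes. Promoter bases with an FDR under 0.05 had a median of 1579 and 1438, against 1146 and 1032 for all genes. Open members had on average 2.85 separate promoter windows and all open genes 2.39. Per kb of promoter window, the medians in replicate 1 were closer, with 0.50 promoter peaks for open members and 0.45 for all open genes. Footprints and bases were not divided by window length. In 13 members more than 1 promoter window was open in both libraries, and the share over all genes is not given. Robo1, Sema4d and Slit3 had 3 open windows, and Epha7, Ephb3, Robo3, Sema4b, Sema4f, Sema6d, Ntn1, Plxnb1, Plxnb2 and Plxnc1 had 2. In Robo1, the 3 windows differed in height, with 0.346 and 0.297 at the most upstream one, 0.226 and 0.251 at the next and 1.69 and 1.49 at the third.

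Outside promoters, guidance genes held many open regions. A distal peak, one within the gene or 10 kb of it and in no promoter window of a protein-coding gene, was present in both libraries in 54 of 66 members, against 50.6% of all genes. Members are long, with a median length of 62.8 kb against 17.6 kb for all genes, and long genes hold more peaks. Each count was therefore placed among those of the 200 genes nearest in length. The median percentile of members was 62.8, against 46.1 over all genes, with 67.9 in replicate 1 and 65.8 in replicate 2. It was above 75 in 26 of 66 members, against 21.8% of all genes, and below 25 in 9, or 13.6%, against 17.2%.

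**Figure D3:**
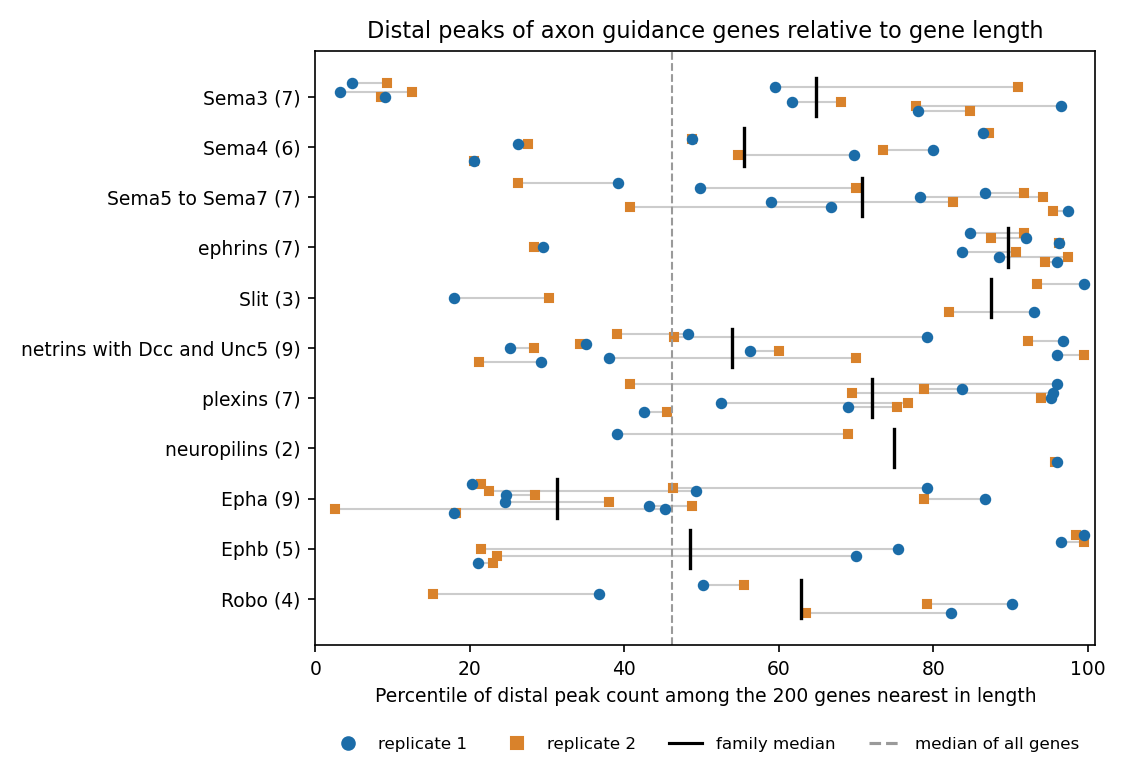
Percentile of the number of distal peaks among the 200 genes nearest in length (horizontal axis) for each gene by family (number of genes in parentheses), in replicate 1 (circles) and replicate 2 (squares); black bars are family medians of the mean of both libraries and the dashed line is the median of all genes, 46.1. Of 7 ephrins 6 lie above 75, whereas the 9 EphA receptors have a median of 31.3.

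The families differed in this. Ephrins had a median percentile of 89.8 and Slits of 87.5, while EphA receptors had 31.3. In replicate 1 these medians were 88.5, 93.0 and 43.3, and in replicate 2 they were 91.8, 82.0 and 28.5. Of the ephrins 6 of 7 were above 75, all but Efna4, and of the EphA receptors 1 of 9, which was Epha4. Among ligands the median percentile was 73.0, with 73.9 in replicate 1 and 75.6 in replicate 2, and among receptors 54.0, with 54.4 and 52.1. The ephrins are short, with a median of 9.41 kb, so that few peaks set their percentiles: Efna3 had 6 distal peaks in replicate 1 and 5 in replicate 2, and Efnb3 5 and 3. Efna5, the longest ephrin gene, had 14 and 15. Class 3 semaphorins split, with Sema3f at 87.1 and Sema3g at 81.4 on the one side and Sema3a at 7.00, Sema3c at 7.88 and Sema3d at 8.75 on the other. Sema3a held 2 distal peaks in replicate 1 and 3 in replicate 2 over 477.2 kb.

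The 10 members with the highest percentiles were Ephb1, Ephb2, Unc5b, Slit1, Sema7a, Efna3, Nrp2, Efnb3, Plxnb1 and Ntn3, from 99.0 to 94.5. Ephb2 had 27 distal peaks in replicate 1 and 29 in replicate 2, of which 23 in replicate 1 overlapped a peak of replicate 2. Nrp2, the receptor of Sema3f, had 17 and 12, and Unc5b 8 and 17. Sema7a had 10 and 4, and Plxnb1 6 and 4. Other counts were much higher in replicate 1 than in the library labelled male replicate 2. Ephb1 had 68 distal peaks there and 30 in replicate 2, and 39 of the 68 lay in dense runs, stretches in which at least 10 peaks without a partner in the other library followed each other at gaps of up to 2 kb. Without these runs Ephb1 had 29 and 30. Plxna4, a receptor of Sema6a, had 41 and 12, or 20 and 12 without runs, and Ntn3 had 10 and 3, or 4 and 3. The peaks in the runs were low, with a median value of 0.170 in Ephb1 and 0.297 in Plxna4.

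Slit1 had 33 distal peaks in replicate 1 and 11 in replicate 2, none of them in such a run, and all 11 had a partner in replicate 1. Slit3 had 36 and 19, and Plxna1 9 and 1. Among the other families Sema6d had 17 and 8 distal peaks, Robo1 16 and 14, Dcc 16 and 11, Epha6 15 and 13, Sema3e 7 and 7 and Sema4d 6 and 4.

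**Figure D4:**
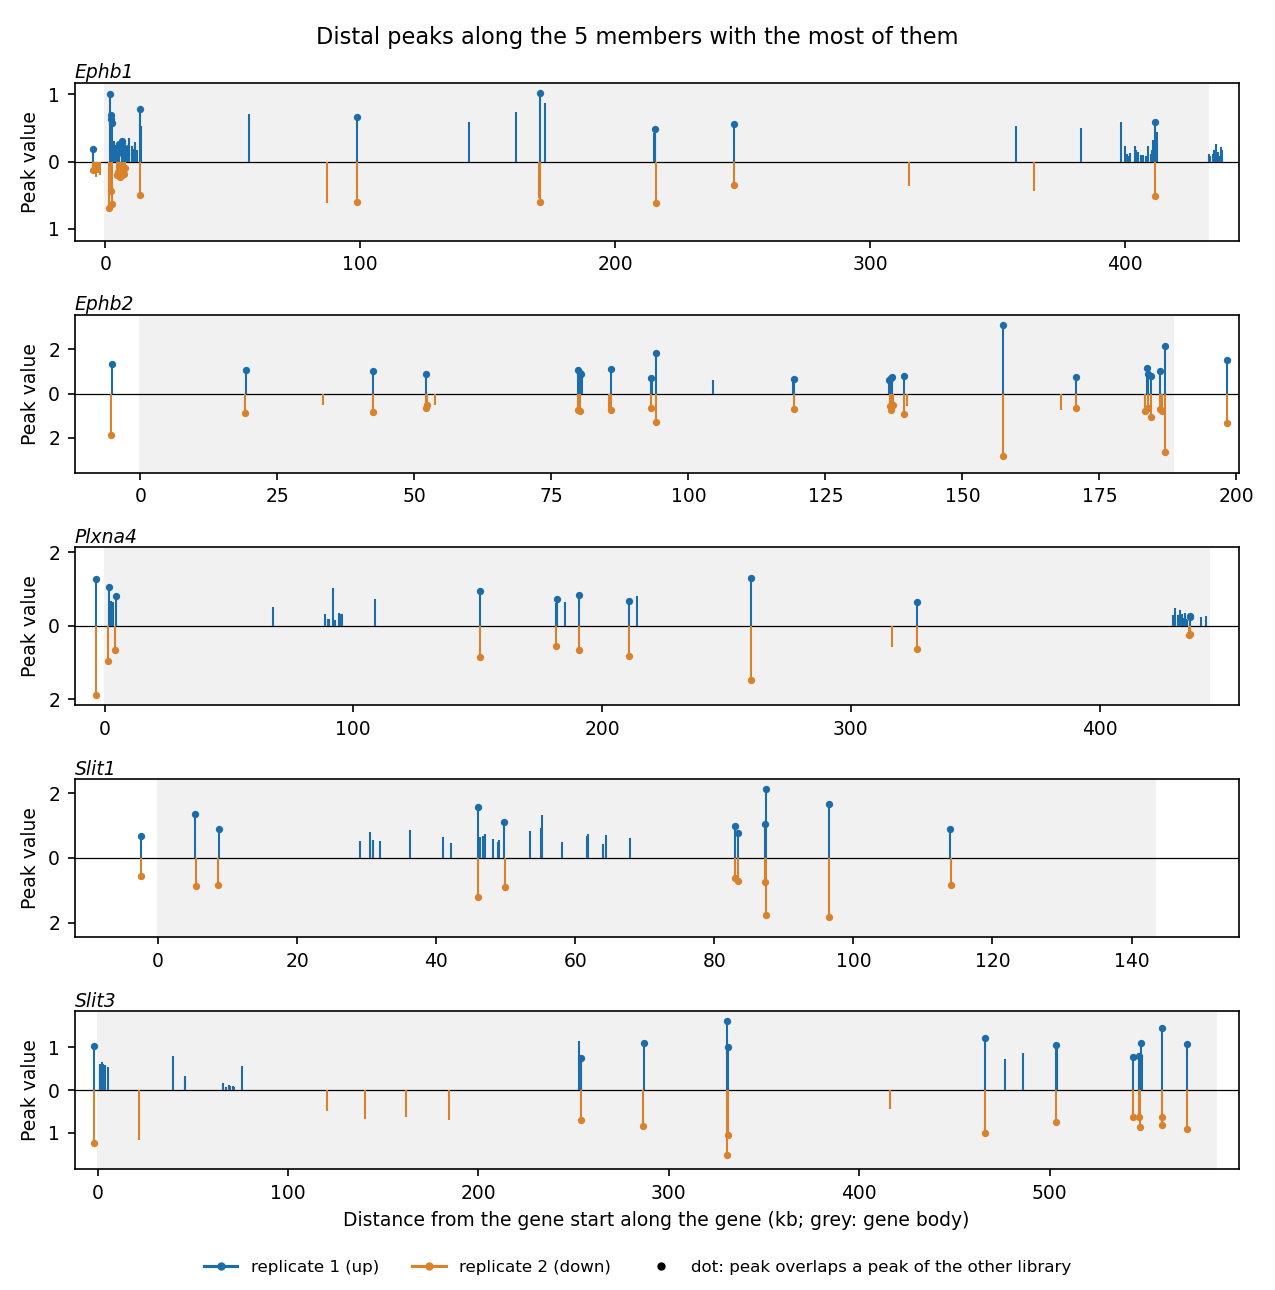
Distal peaks of the 5 members with the highest mean number of them, by distance from the gene start in kb (horizontal axis) and peak value (vertical axis, the authors' signal), with replicate 1 upward, replicate 2 downward, dots on peaks that overlap one of the other library, and the gene body in grey. In Ephb2 23 of 27 peaks of replicate 1 are shared, while Ephb1 and Plxna4 have crowds of low peaks in replicate 1 and Slit1 has 33 peaks against 11.

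Summed over the extended gene, the peak values of the libraries differed by more than 2-fold, after the median over all genes was removed, in 3 of 66 members, against 4.26% of all genes with a peak. These were Plxna1, Ephb4 and Slit1, with log2 differences of 1.45, 1.27 and 1.08, replicate 1 minus replicate 2. All 3 were higher in replicate 1 than in the library labelled male replicate 2. The median member differed by 0.10 on the log2 scale. Of 524 distal peaks of replicate 1 in members 45.0% overlapped a peak of replicate 2, against 49.4% over all genes, and of 350 in replicate 2 68.9% overlapped one of replicate 1, against 64.3%. Peaks without a partner were lower. Their median value was 0.452 in replicate 1 and 0.445 in replicate 2, against 0.837 and 0.735 for shared ones.

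The shared distal peaks of members numbered 237, as pairs of a gene and a peak, and 236 were different peaks. Of the 237, 169 lay in introns, 28 upstream, 17 downstream, 12 in coding exons and 11 in UTRs or noncoding exons, and 7 lay inside another protein-coding gene. A footprint was present in both libraries in 142, and 163 were within 50 kb of a TSS of the gene itself. No share over all genes is given beside these 2 counts. Taken by library, shared distal peaks of members held a footprint less often than those of all genes. The shares were 77.5% against 84.1% in replicate 1 and 73.9% against 80.6% in replicate 2. In 235 the values of the libraries were within 2-fold, also without a share over all genes. A peak near a gene need not act on that gene.

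**Figure D5:**
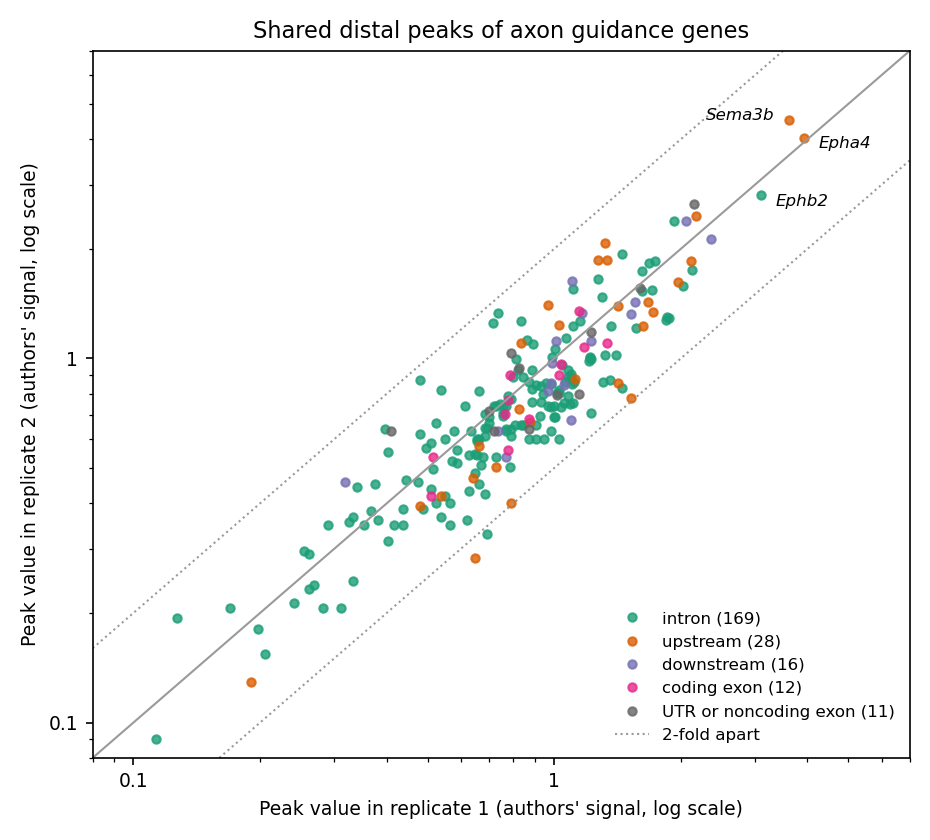
Value of each of the 236 different shared distal peaks in replicate 1 (horizontal axis) and replicate 2 (vertical axis), both the authors' signal on log scales, coloured by place relative to the gene; the solid line marks equal values and the dotted lines values 2-fold apart. The 2 strongest, upstream of Sema3b and Epha4, stand apart from the rest, followed by the intronic peak of Ephb2.

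The 2 strongest lay upstream of the gene and were about as high as the highest member promoters. The Sema3b peak, 3.6 kb from the nearest own TSS, had 3.61 in replicate 1 and 4.51 in replicate 2. The open promoter window of Sema3b, inside the gene, had 3.31 and 3.40. The Epha4 peak, 1.3 kb from the TSS and so just beyond the promoter window, had 3.93 and 4.04, against 2.41 and 1.93 at the promoter. The intronic peak of Ephb2, 15.4 kb from the nearest TSS, had 3.11 and 2.80. A second peak of Ephb2, in a UTR or noncoding exon, had 2.16 and 2.66.

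The other 6 of the 10 strongest belonged to Sema4a, Efnb3, Unc5b, Efna3, Sema7a and Slit1. Sema4a, whose promoter was open only in replicate 1, had an upstream peak of 2.17 and 2.46 at 6.1 kb. For Efnb3 the peak of 2.35 and 2.13 lay inside the neighbouring gene Dnah2. The Unc5b peak, downstream of the gene, had 2.06 and 2.38, and the Efna3 peak, in an intron, 1.93 and 2.38. Sema7a had 2.12 and 1.86 at 4.3 kb upstream, and the Slit1 peak, in an intron, had 2.13 and 1.75.

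Letters of 14 motifs were counted on both strands of windows of 300 bp centred on shared peaks. Among the 236 distal windows of members the E-box letters (CAGCTG or CAGATG) were in 49.6%, against 49.9% of all shared distal windows, the NFI letters (TTGGCA) in 27.5% against 23.5%, and SOX letters (ACAAAG) in 23.3% against 21.5%. The AP-1 letters (TGANTCA) were in 8.05%, against 10.2%. Shares of members and of all windows were less than 5 percentage points apart in every motif, distal or promoter. This says little for rare letters: those of ETS were in 4.18% of all promoter windows, so no shortfall could reach 5 points. In promoter windows the NFI letters went the other way, with 6.92% for members against 11.3%. CTCF letters in the short (AGGGGGCGC or AGGTGGCAG) or the longer form, which overlap each other, were in 21.2% of member distal windows and 23.9% of all. They were more frequent in the stronger peaks: among the strongest 59 member peaks, those of 1.09 or more, 30.5% held them, against 43.3% of all shared distal peaks of that height, and among the weakest 118 of the 236 13.6%, against 14.6%. Of the 10 strongest member peaks, those of Sema3b, Epha4, Unc5b and Efna3 held them, 4 of 10, against 51.5% of all 1989 shared distal peaks of that height. The longer form was added after the sequences shown above had been read, those of Sema3b and Epha4 among them. Counts among the strongest member peaks are thus not independent of the choice of letters. In the sequence shown, Epha4 held only the longer form of the CTCF letters.

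Around the 159 shared promoter peaks of members, the SP letters (GGGCGG) were in 55.3%, against 56.1% of all promoter windows, and EGR letters (GCGGGGGCG) in 4.40% against 4.65%. The homeodomain letters (TAATTA) were in 7 windows, or 4.40%, against 1.47%. ETS letters (CCGGAAGT) and NRF1 letters (GCGCATGCG) were in 0 of 159 windows, against 4.18% and 1.96% of all promoter windows. If the windows were independent, 0 of 159 would allow a share of up to 1.89%. Many members gave several neighbouring windows, so the share allowed may be higher, and no difference was tested. CREB letters were in 2 windows, or 1.26%, against 2.01%.

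Other genes of the pathway were open at least as often. Of 26 other guidance cues and co-receptors 25 had a promoter peak in both libraries, all but Flrt1, with a median value of 1.57. All 40 genes of a list of signalling proteins in the growth cone were open in both, with a median of 2.10, which is closer to the 2.21 of all open genes than the 1.76 of the ligands and receptors. Their median distal percentiles were 73.4 for the cues and co-receptors and 66.6 for the signalling proteins. The marker and pathway lists are counted here without a test.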

How the data were processed

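DNase-seq was analysed from 2 libraries of 1 group. Per the file headers, coordinates are those of mm10, and replicates were not pooled. Aligner, callers and versions: not given in the sources used here. Peak values are the authors' signal, a coverage-like height of unknown scaling, so the depth of each library is unknown and no interval is given. The deposited p-value column holds an FDR for each stretch of bases, all under 0.05. Footprints were used by place alone.

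Genes, exons and TSS were those of GENCODE M21, with GRCm38.p6 sequence. Overlaps of at least 1 bp were counted in Python 3.11.15 (numpy 2.4.6, pandas 2.3.3, pysam 0.24.0), and the code was tested on simulated data. For each gene, peak values were summed, 0.5 was added, and the log2 ratio of replicate 1 to replicate 2 was taken, less its median over all genes, 0.14. Members, lists and motifs were chosen with earlier results of these data known, so no test was run, and the longer CTCF form was added after the sequences had been read. Named with their values were, by rule, the highest and lowest promoter and the most distal peaks in each of 11 families, the 10 highest percentiles, the 10 strongest shared distal peaks, promoters open in 1 library or in several windows, and the 5 members with most footprints. Further members, such as those of known hippocampal or vascular role, were named after their values were seen.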

Additional observations from a re-analysis of the deposited data

How the results depend on the processing

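Of 45 recalculations of the gene results, 36 stayed within the limit set for each. The limit was 1.5 times for counts, the spread over members for the library difference, and the spread between the libraries for the rest. These limits are wide: with 59 of 66 members open, no rise could pass 1.5 times the count. The median distal percentile was 59.3 with the authors' shorter peak list, 68.1 with genes extended by 50 kb, and 54.8 when distal peaks lay outside 2.5 kb of any TSS; over all genes it was between 39.4 and 50.5 in the same recalculations. With 1 library left out it was between 65.8 and 67.9. The median promoter value was 1.61 with windows of 0.5 kb, and between 1.59 and 1.70 with 1 library left out. The share of distal peaks of replicate 1 with a partner was 27.1% when peaks had to overlap each other by 50%, and the share in replicate 2 was 68.9%. The cause was not tested. Of 56 recalculations of motif shares, 50 stayed within the counting interval; the other 6 used windows of 200 bp, which hold fewer bases. No paired analysis was possible because the libraries form 1 group. With 2 libraries of unknown depth, 1 of them with sex-linked promoters that go against its label, differences between members near each other in value cannot be resolved.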
